A study of Mus musculus with 2 samples.

Results

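Chromatin accessibility was examined at 9 genes that encode surface markers of mouse hematopoietic stem cells (HSCs), Procr, Kit, Cd34, Flt3, Ly6a, Eng, Tek, Esam and Thy1. These genes were chosen by name, as proteins used to sort or describe stem cells, and they are 9 of the 21755 protein-coding genes annotated on the autosomes and chromosome X. The assay was single-cell ATAC-seq, in which a transposase cuts open DNA of each nucleus and the fragments between cuts are sequenced with the barcode of their cell. The young library came from 10-week-old and the aged library from 20-month-old C57BL/6 mice, with no genetic change or treatment in either. Bone marrow cells of both ages had been sorted with the same gate, as lineage-negative cells, also labelled IL-7- (the antibody named in the methods binds its receptor, IL-7Rα), that were positive for c-kit, Sca-1 and CD150 and negative for CD34, CD48 and Flt3. Proteins of 4 of the 9 genes (Kit, Ly6a, Cd34 and Flt3) were thus part of the gate in both libraries, and their surface level was fixed by the sort and is no readout here.

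There was 1 library per age. How many mice were pooled in each is not given in the sources used here, no test between ages was possible, and each interval below is a 95% interval that covers counting error only. Barcodes were kept when the authors' pipeline called them as cells and they had more than 3000 and fewer than 20000 fragments in the authors' peaks. This left 4887 of 5028 called cells in the young library, where 129 had too few and 12 too many fragments, and 3404 of 3694 in the aged library, where 172 had too few and 118 too many. The kept cells held 50065741 young and 38655499 aged fragments, with a median of 9888 and 11020 per cell. The libraries shared 26 kept barcode sequences. The aged library had a lower TSS enrichment (median 5.30 against 5.78 over cells), a lower share of fragments in the peaks called here (67.6% against 69.2%) and fewer fragments shorter than 150 bp in those peaks (64.9% against 69.0%). The part of these differences in the values below was not tested.

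The products of the 9 genes do different work on the cell surface. Kit is the receptor tyrosine kinase for stem cell factor, Flt3 the related receptor for Flt3 ligand that marks multipotent and lymphoid-primed progenitors, and Tek (Tie2) the receptor for angiopoietins. Procr (EPCR) binds protein C and Eng (endoglin) is a co-receptor for ligands of the TGF-beta family. Cd34 is a sialomucin, Esam an adhesion molecule of the immunoglobulin family, and Ly6a (Sca-1) and Thy1 are small proteins held in the membrane by a lipid anchor. Tek, Eng, Esam, Procr and Cd34 are also known from the endothelium. An open promoter permits transcription but does not measure it, and no RNA or protein was measured in these libraries.

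Sequences are shown for the promoters of Flt3 and Tek, which had the largest differences between ages at a promoter, and of Eng, whose promoter was close to equal in both. Each runs over the 250 bases before the transcription start site (TSS), 5' to 3' on the strand of the gene, from RefSeq on GRCm38.p6 (Flt3 chr5:147400490-147400739, minus strand, Eng chr2:32646345-32646594 and Tek chr4:94739039-94739288, plus strand). Capitals mark matches to any of 9 consensus motifs searched on both strands. The letters searched were AGATAA or else TGATAA for the family of GATA factors, TGTGGT for RUNX, CCGGAA for ETS, GAGGAAGT for PU.1, TGANTCA for AP-1, TTCNNNGAA for STAT, GGGCGG for SP/KLF, TGACGTCA for CRE and TATAAA for the TATA box, and some of these overlap in the letters they allow.
Flt3: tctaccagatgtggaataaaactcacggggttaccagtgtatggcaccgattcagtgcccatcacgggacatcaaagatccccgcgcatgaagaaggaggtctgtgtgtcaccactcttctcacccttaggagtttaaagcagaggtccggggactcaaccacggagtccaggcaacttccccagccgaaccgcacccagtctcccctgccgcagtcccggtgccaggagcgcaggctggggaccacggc
Eng: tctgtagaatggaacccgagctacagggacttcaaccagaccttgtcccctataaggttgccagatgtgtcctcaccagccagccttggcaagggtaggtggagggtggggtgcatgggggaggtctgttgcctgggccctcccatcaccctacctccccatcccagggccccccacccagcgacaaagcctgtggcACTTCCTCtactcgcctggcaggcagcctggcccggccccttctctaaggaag
Tek: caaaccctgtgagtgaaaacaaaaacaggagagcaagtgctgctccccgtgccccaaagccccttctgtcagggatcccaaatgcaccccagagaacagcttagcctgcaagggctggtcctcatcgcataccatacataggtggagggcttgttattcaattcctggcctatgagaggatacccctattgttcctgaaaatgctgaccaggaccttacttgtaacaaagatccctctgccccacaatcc
From 250 bases before to 50 after the TSS, Flt3 held none of the 9 motifs. Eng held 1 PU.1 match, marked in capitals, which 3.13% of 16433 protein-coding promoters of the same length also held. Tek held 1 GATA match that starts 36 bases after the TSS, beyond the stretch shown, and 15.6% of promoters held one. RefSeq sequence was matched for 6 of the 9 genes. Procr held 1 AP-1 match (7.11% of promoters), Kit 1 SP/KLF match (48.3%) and Cd34 none, and Ly6a, Esam and Thy1 were not among the promoters used. GC content of these 6 stretches ran from 50% in Cd34 to 69.0% in Kit, against a median of 57.0% over all promoters.

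Promoter levels were fragments with an end within 1 kb of the TSS per 1000000 fragments in the peaks called here (FPM), so all promoters have the same length and can be set side by side. With 1 annotated start per gene, Kit was the most open of the 9, at 51.3 FPM in young HSCs (interval 48.9 to 53.7). In aged HSCs Kit had 48.0 FPM (45.3 to 50.7), and it stood at the 88.8th and 88.6th percentiles of all protein-coding promoters. Flt3 followed in young HSCs at 33.8 FPM (31.9 to 35.8) and stood at 25.5 FPM (23.6 to 27.5) in aged HSCs. Next in young HSCs were Eng at 25.7 FPM and Esam at 23.7 FPM, whose intervals overlapped. Cd34 at 16.1, Procr at 14.6, Thy1 at 12.8 and Tek at 11.1 FPM formed a chain in which each interval overlapped that of the next. Ly6a was far lower, at 3.0 FPM (2.45 to 3.64) in young and 2.83 FPM (2.22 to 3.55) in aged HSCs. This order depends on the start chosen. Windows at all annotated transcript starts, which differ in total length among genes, held more fragments at Esam (2771 young, 2207 aged) than at Kit (2101 and 1521).

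In aged HSCs the intervals of Flt3, Esam (25.2 FPM) and Eng (24.4 FPM) overlapped, and Procr (16.8 FPM) and Tek (15.1 FPM) stood above Cd34 (14.0 FPM) and Thy1 (11.5 FPM). The intervals of neighbours in that order overlapped, except between Kit and Flt3, Eng and Procr, and Thy1 and Ly6a. Promoters of genes of other tissues gave the background level. Alb, Ins1, Krt5 and Myh6 had 0.144 to 0.664 FPM in young and 0.191 to 0.727 FPM in aged HSCs, all below Ly6a. A further gene listed as closed, Gfap, had 9.67 and 9.41 FPM and was not closed in these cells.

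**Figure D1:**
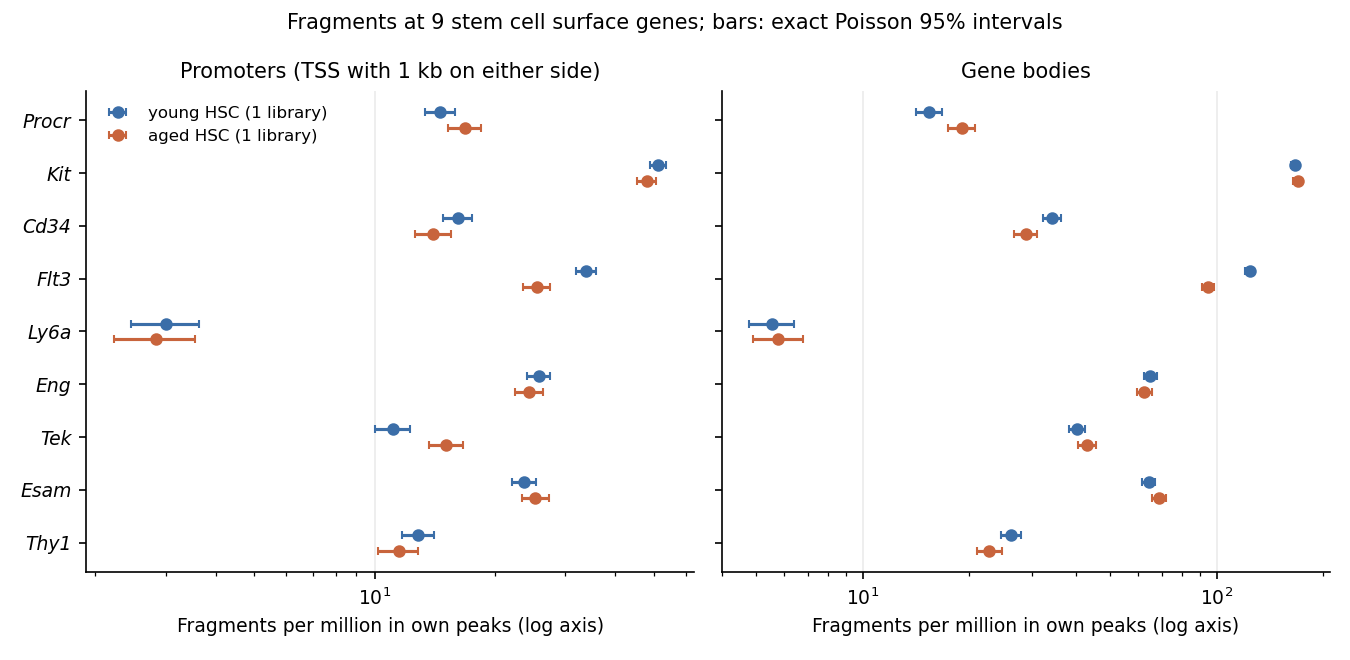
Fragments per 1000000 in the peaks called here (log axis) for young (blue) and aged (orange) HSCs at the promoters (left) and over the bodies (right) of the 9 genes, with exact Poisson 95% intervals and 1 library per age. The intervals of young and aged do not overlap for the Flt3 promoter, the Tek promoter and the bodies of Procr, Cd34 and Flt3.

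Of the 9 promoters, 1 was called higher and 1 lower in aged HSCs, called meaning past 1.2-fold with at least 50 fragments in both libraries together. Over the 15978 promoters with as many fragments, 11.5% were called higher and 5.76% lower, so 1 of 9 in each direction is near the background. The median log2(aged/young) was -0.08 over the 9 genes and -0.05 over all promoters. The interval excluded 0 for 4 genes, higher for Procr and Tek and lower for Cd34 and Flt3. How many of all promoters have such an interval was not counted, so these 4 have no background beside them.

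The angiopoietin receptor gene Tek (ENSMUSG00000006386.15, chr4:94739289-94874976) had 385 young and 395 aged promoter fragments, 11.1 FPM (10.0 to 12.3) against 15.1 FPM (13.7 to 16.7). Its log2 ratio of 0.44 (0.24 to 0.65) was at the 94.0th percentile of promoters. The difference lay in longer fragments. Those shorter than 150 bp, which come mostly from DNA free of nucleosomes, gave 8.57 and 8.48 per 1000000 such fragments and a log2 ratio of -0.01 (-0.33 to 0.30), whereas those of 150 bp or longer gave 16.8 and 27.4 per 1000000 and a ratio of 0.70 (0.42 to 0.99). The share of short fragments at the Tek promoter fell from 53.2% (48.1 to 58.3) to 36.5% (31.7 to 41.4), a larger drop than that of all promoters, whose median share was 64.0% in young and 59.9% in aged HSCs. Cut sites of aged HSCs exceeded those of young HSCs in each 100-bp bin from 500 bp before to 100 bp after the TSS, while the highest bin of each age, further into the gene, held 3.46 and 3.82 cut sites per 1000000 fragments.

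The progenitor receptor gene Flt3 (ENSMUSG00000042817.15, chr5:147330741-147400489, minus strand) went the other way, with 1171 young and 666 aged promoter fragments. Its log2 ratio was -0.41 (-0.55 to -0.27), at the 2.70th percentile of promoters. The highest bin, the 100 bp after the TSS, had 16.7 cut sites per 1000000 fragments in young and 13.4 in aged HSCs. Both short (-0.36) and longer fragments (-0.46) were lower. Thinning each cell to the same depth of in-peak fragments on average left 388 young and 230 aged fragments at the Flt3 promoter. The ratio was then -0.23 and no longer passed 1.2-fold. No interval was computed for this ratio from fewer fragments, so whether it differs from -0.41 beyond counting error was not tested. The window also holds the start of the noncoding gene Gm26597, whose reads cannot be told apart from those of Flt3.

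Procr (ENSMUSG00000027611.12, chr2:155751117-155755471) had 505 young and 440 aged promoter fragments and a log2 ratio of 0.21 (0.02 to 0.39). Cd34 (ENSMUSG00000016494.9, chr1:194938819-194961279) had 559 and 366, with a ratio of -0.20 (-0.40 to -0.01). At Cd34 the difference was in short fragments (-0.40, from -0.66 to -0.15), and longer ones gave 0.02 (-0.28 to 0.32). Neither gene passed 1.2-fold over all fragments.

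The promoters of Kit (-0.10, from -0.20 to 0.01), Eng (-0.08, from -0.23 to 0.07), Esam (0.09, from -0.06 to 0.24), Thy1 (-0.16, from -0.38 to 0.05) and Ly6a (-0.08, from -0.54 to 0.36) had intervals that included 0. A difference of 1.2-fold, which is 0.26 on this scale, lies outside the intervals of Kit, Eng and Esam in either direction. The interval of Ly6a, from 104 young and 74 aged fragments, spans changes beyond 1.2-fold both ways, so no such difference was detectable at this depth. In the Ly6a window 61.8% of the 31-base words of the reference sequence occur again elsewhere in the assembled chromosomes, against 0 to 9.69% in the windows of the other 8 genes. Reads from such words can be dropped or placed in a copy, so the Ly6a level is uncertain.

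**Figure D2:**
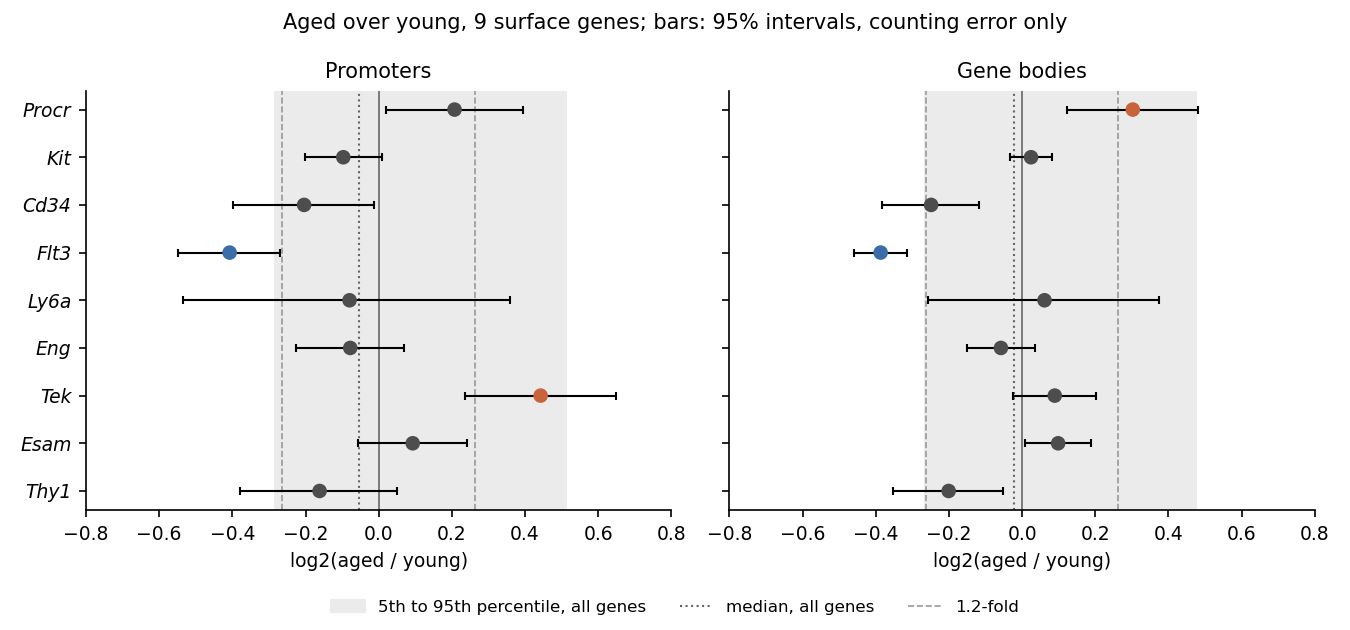
log2(aged/young) at the promoters (left) and over the bodies (right) of the 9 genes with 95% intervals of counting error. The grey band holds the 5th to 95th percentile of all genes tested, the dotted line their median and the dashed lines 1.2-fold; only the Flt3 values lie below the band, and no value lies above it.

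**Figure D3:**
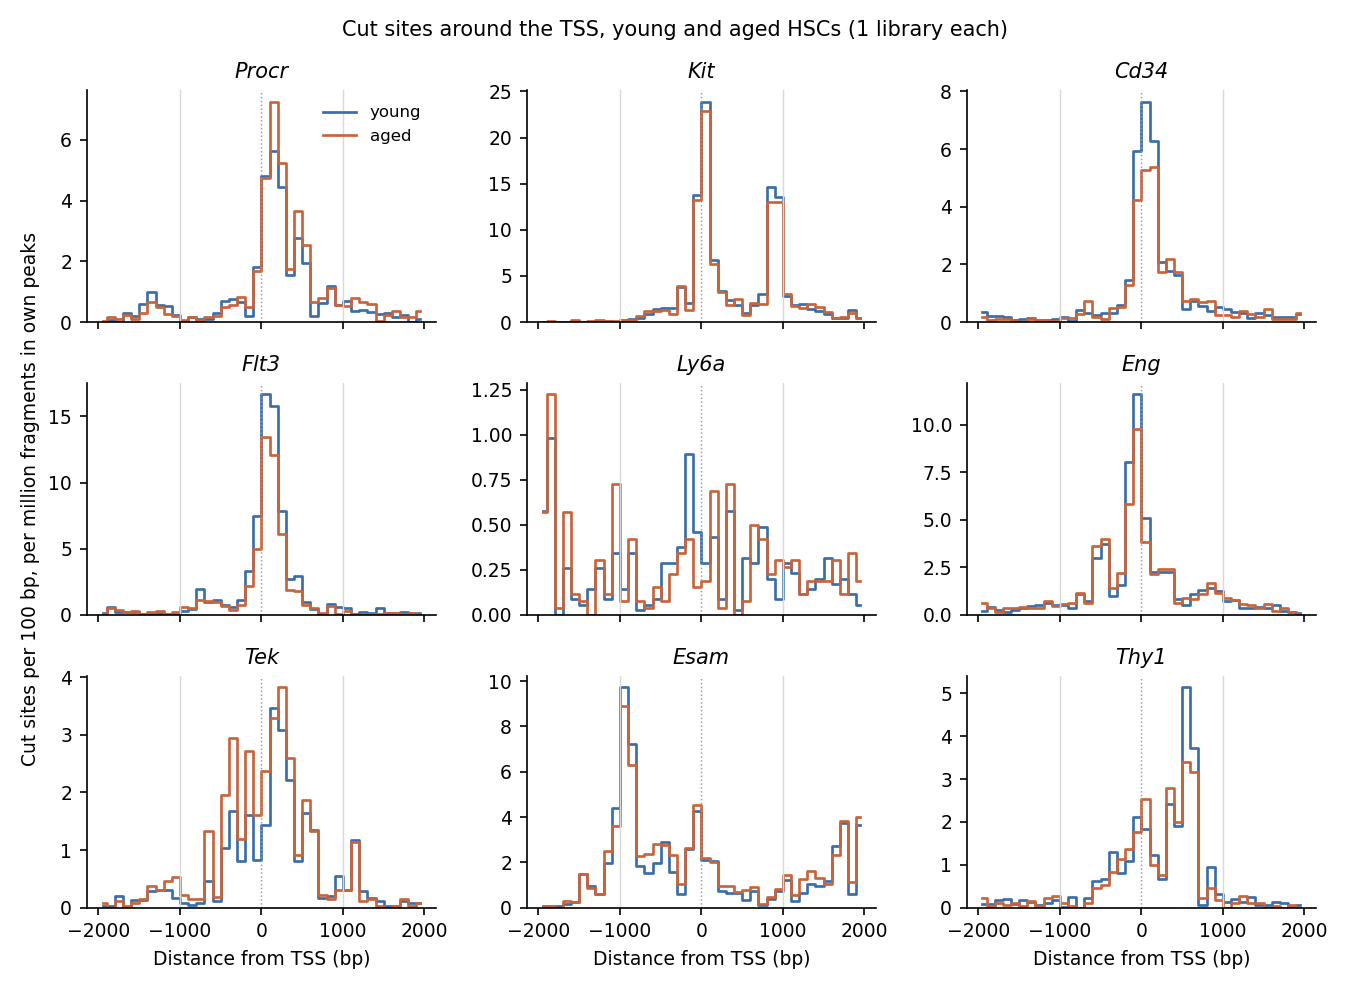
Cut sites per 100 bp and per 1000000 fragments in own peaks within 2 kb of the TSS of each gene, young in blue and aged in orange, with a separate scale for each gene and grey lines at 1 kb. Kit, Cd34, Flt3 and Procr peak within 200 bp after the TSS, Eng just before it, the highest bins within 1 kb at Esam and Thy1 lie 950 bp before and 550 bp after it, and Ly6a has no clear peak.

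The shape of accessibility around the TSS differed among the genes. At Kit an opening at the TSS (23.9 cut sites per 1000000 fragments in the highest bin of young HSCs) was followed by another 882 bp into the gene, at 20.1 and 18.4 FPM in young and aged HSCs. At Esam the strongest opening in the window was 911 bp before the annotated start, at 14.0 and 13.1 FPM, and the peak at the start itself held 5.54 and 6.23 FPM. At Thy1 the peak in the gene 491 bp after the start was stronger (7.85 and 6.81 FPM) than that at the start (4.45 and 4.67 FPM). None of these peaks passed 1.5-fold.

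Over gene bodies, 1 of the 9 was called higher and 1 lower in aged HSCs, against 11.7% and 5.11% of the 18444 bodies tested. The median log2 ratio was 0.02 over the 9 genes and -0.02 over all bodies. Bodies contain the part of the promoter window that lies in the gene, so the values are not independent of those above. Flt3 had the lower call, at 124 FPM (120 to 128) in young and 94.7 FPM (91.0 to 98.5) in aged HSCs, a ratio of -0.39 (-0.46 to -0.32) at the 2.22nd percentile. Procr had the higher call, at 15.4 FPM (14.2 to 16.8) and 19 FPM (17.4 to 20.8), a ratio of 0.30 (0.12 to 0.48). The Procr call was lost when 2 kb upstream were added (0.23) or only fragments of 150 bp or longer were counted (0.21), and the ratio was 0.53 without the 1 kb next to the TSS.

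Cd34 (34.3 to 28.9 FPM, ratio -0.25, from -0.38 to -0.12) and Thy1 (26.2 to 22.8 FPM, ratio -0.20, from -0.35 to -0.05) stayed just inside 1.2-fold, with intervals below 0. Under 5 of the alternative settings the Cd34 body passed 1.2-fold. Esam had 64.4 and 68.9 FPM and a ratio of 0.10 (0.01 to 0.19). Tek, called higher at its promoter, had 40.4 and 43.0 FPM over its body and a ratio of 0.09 (-0.03 to 0.20). Kit (166 and 169 FPM), Eng (65.0 and 62.4 FPM) and Ly6a (5.54 and 5.78 FPM) had ratios of 0.02, -0.06 and 0.06.

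Per kilobase of gene, the levels had another order. Esam was the densest, at 6.29 FPM per kb in young and 6.73 FPM per kb in aged HSCs over 10.2 kb. Thy1 came next at 5.04 and 4.39 FPM per kb and Procr at 3.55 and 4.37 FPM per kb. Kit, Eng, Flt3, Ly6a and Cd34 lay between 1.53 and 2.04 FPM per kb in young HSCs and between 1.29 and 2.07 in aged HSCs. Tek, the longest of the 9 genes at 136 kb, was the least dense at 0.298 and 0.317 FPM per kb.

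The bodies of the 9 genes with 50 kb on either side, promoters included, held 223 of the peaks called here. Of these, 149 had at least 100 fragments in both libraries together. Past 1.5-fold, 9 were higher and 9 lower in aged HSCs, 6.04% each way. Over the 97318 peaks tested genome-wide 9.60% were higher and 4.01% lower. In 500-bp bins of the same loci, 18 of 324 tested were higher (5.56%) and 13 lower (4.01%), against 9.0% and 2.90% of all 182068 bins tested. Bins and flank sums, here and below, recount fragments of the peaks they contain and are not independent of them. The centres of all 18 called peaks lay more than 1 kb from the 5' end of any annotated gene, as did 112 of the 149 peaks tested. Other transcript starts were not searched. Many of these peaks sit inside neighbouring genes, so a peak is named here by its distance from the surface gene only to place it.

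Among peaks of at least 100 fragments, the largest rise was a pair upstream of Thy1 (ENSMUSG00000032011.5, chr9:44043384-44048579), in introns of the noncoding gene Gm39323. The peak 12.1 kb before the Thy1 TSS rose from 4.82 to 9.64 FPM (167 and 252 fragments), a ratio of 1.0 (0.71 to 1.29). Its neighbour 11.3 kb before the TSS rose from 2.57 to 6.85 FPM (89 and 179 fragments), a ratio of 1.41 (1.04 to 1.80). Each kept its direction and passed 1.5-fold under all 10 alternatives for single peaks. Thy1 has the nearest protein-coding start to both, and its own promoter and body were not higher. Upstream of Thy1, in bins that include the pair, 3 of 10 tested were higher and 0 lower, against 9.0% and 2.90% of all bins. The 50 kb upstream went from 53.1 to 68.8 FPM (ratio 0.37, from 0.28 to 0.47). This sum contains the fragments of the pair and is not independent of it. The peak of this locus with the most fragments beyond 1 kb, at the start of Usp2 23.8 kb downstream, was level at 44.1 and 43.1 FPM.

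The 200 bases at the centre of each of these peaks are shown because they carry the largest rises in these loci among peaks of at least 100 fragments. They are followed by the peak of Kit and the peak of Procr with the clearest losses and the most open distal peak of Procr. All are on the plus strand of GRCm38, in the order chr9:44031198-44031397, chr9:44032033-44032232, chr5:75695386-75695585, chr2:155787033-155787232 and chr2:155743155-155743354, with matches to the 9 motifs in capitals.
Thy1 12.1 kb upstream: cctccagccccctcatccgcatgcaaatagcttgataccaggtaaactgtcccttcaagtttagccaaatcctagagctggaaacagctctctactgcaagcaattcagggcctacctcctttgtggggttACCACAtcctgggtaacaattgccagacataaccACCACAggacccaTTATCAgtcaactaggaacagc
Thy1 11.3 kb upstream: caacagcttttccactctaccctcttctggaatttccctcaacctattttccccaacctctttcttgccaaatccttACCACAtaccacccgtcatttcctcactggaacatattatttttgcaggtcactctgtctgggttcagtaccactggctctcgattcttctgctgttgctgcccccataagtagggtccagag
Kit 121 kb downstream: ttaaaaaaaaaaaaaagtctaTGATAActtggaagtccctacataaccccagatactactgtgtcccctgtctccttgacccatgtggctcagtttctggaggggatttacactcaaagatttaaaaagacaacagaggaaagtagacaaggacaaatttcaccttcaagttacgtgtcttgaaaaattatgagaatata
Procr 36 kb downstream: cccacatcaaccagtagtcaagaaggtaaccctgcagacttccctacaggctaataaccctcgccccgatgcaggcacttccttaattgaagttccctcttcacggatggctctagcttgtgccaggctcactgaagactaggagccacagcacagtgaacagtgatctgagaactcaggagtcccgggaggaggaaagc
Procr 7.86 kb upstream: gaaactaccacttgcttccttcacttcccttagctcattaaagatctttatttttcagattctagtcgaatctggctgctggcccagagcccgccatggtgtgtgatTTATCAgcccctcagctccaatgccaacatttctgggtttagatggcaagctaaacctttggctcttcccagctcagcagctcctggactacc
The Thy1 peaks held 2 RUNX and 1 GATA match and 1 RUNX match. The Kit peak and the upstream Procr peak held 1 GATA match each, and the downstream Procr peak held no match. Of 80580 distal peaks of at least 100 fragments, 22.5% held RUNX and 16.2% held GATA letters in their central 200 bases.

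Around Kit (ENSMUSG00000005672.12, chr5:75574916-75656722), an intergenic peak 121 kb after the TSS fell from 14.5 to 8.03 FPM (501 and 210 fragments), a ratio of -0.84 (-1.09 to -0.61). With fragments of 150 bp or longer alone its ratio was -0.52 and did not pass 1.5-fold. In an intron 49.3 kb into Kit, a weak peak rose from 1.96 to 3.48 FPM (68 and 91 fragments, ratio 0.82, from 0.36 to 1.3), and its call was lost with these longer fragments (0.55). The other peaks tested in the Kit body, including the most open one beyond 1 kb of the TSS, in an intron 7.29 kb after it (11.9 and 12.6 FPM, 21.2% of its words recurring), had ratios from -0.13 to 0.20 with intervals that included 0.

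The Procr body was called higher and its promoter stayed within 1.2-fold. In the Procr locus 3 of 13 peaks tested were lower past 1.5-fold and 0 higher, against 4.01% and 9.60% of all peaks. The 3 lower peaks lay 40.3 kb before the TSS (4.88 to 2.45 FPM, ratio -0.98) and 26.4 kb before it (4.71 to 2.37 FPM, ratio -0.97), both in introns of Edem2, and 36 kb after it in an intron of Mmp24 (4.36 to 1.72 FPM, ratio -1.32, from -1.85 to -0.85, and -2.43 with thinned cells). The most open distal peak, intergenic and 7.86 kb upstream, held 45.1 and 41.2 FPM, more than the whole promoter window. Its ratio of -0.13 (-0.24 to -0.02) was within 1.5-fold. Nearer the 3' end, peaks 4.76 and 6.1 kb after the TSS went from 10.4 to 12.7 FPM and from 6.96 to 8.83 FPM, with intervals above 0 (ratios 0.29 and 0.34) but within 1.5-fold.

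At Flt3 the loss was spread over the gene. Of 8 peaks tested in the body, 6 had intervals below 0, and how many of all peaks do was not counted. The ratios of these 6 ran from -0.43 at the TSS (30.1 to 22.3 FPM) to -0.83 at an exon 59.3 kb after it (10.8 to 6.04 FPM). The peak at 59.3 kb and another at 60.7 kb passed 1.5-fold. Over all peaks 4.01% were lower past 1.5-fold. For the one at 60.7 kb, from 87 and 40 fragments, the ratio was -0.70, -1.16 with thinned cells and -0.44, no longer past 1.5-fold, with fragments of 150 bp or longer. Both alternatives hold fewer fragments, and no minimum was applied to their ratios. A peak 11.4 kb after the TSS went the other way, from 6.32 to 8.53 FPM (ratio 0.43, from 0.16 to 0.71). In bins, 4 of 15 tested in the body were lower and 0 higher, against 2.90% and 9.0% of all bins. A weak peak 48.7 kb upstream, in an intron of Pan3, was called higher (1.56 to 2.98 FPM, ratio 0.93), a call lost with fragments of 150 bp or longer (0.23). The peak with the most fragments beyond 1 kb, 18.1 kb upstream at the start of D5Ertd605e, had 28.3 and 23.5 FPM (ratio -0.27), and 14.9% of its words recur. In the flanks the 50 kb upstream gave -0.19 (-0.25 to -0.14) and the 50 kb downstream 0.14 (0.08 to 0.20), where a peak 108 kb from the TSS, within 1.5-fold, went from 21 to 27 FPM.

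Cd34 had 1 called peak, in its own intron 4.91 kb after the TSS, which fell from 3.95 to 2.45 FPM (ratio -0.68, from -1.14 to -0.25). This call was lost with fragments of 150 bp or longer (-0.29). The most open peak of this locus, 37.8 kb after the TSS at the starts of the noncoding genes A330023F24Rik and Gm16897, was level at 37.6 and 38.3 FPM.

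Around Tek 2 of 8 peaks tested were higher past 1.5-fold and 0 lower, against 9.60% and 4.01% of all peaks. The 2 called peaks lay 28.0 kb upstream in intergenic DNA (2.45 to 3.86 FPM, ratio 0.65) and 181 kb downstream in an intron of Eqtn (4.50 to 7.46 FPM, ratio 0.73). The first call was lost with cut sites (0.58) or thinned cells (0.52) and the second with fragments of 150 bp or longer (0.58). The peak with the most fragments beyond 1 kb, 48.3 kb upstream in an intron of Ift74, had 10.5 and 9.22 FPM (ratio -0.19, from -0.43 to 0.05). The flanks of 50 kb on either side together gave a ratio of 0.35 (0.26 to 0.44), against 0.11 (0.01 to 0.22) over the body in the same bins. Fragments outside all peaks gave a ratio of 0.10 over the whole genome on this scale, bins outside peaks in the Tek flanks gave 0.18 (0.02 to 0.33), and the part of this in the flank values was not tested.

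The locus of Ly6a (ENSMUSG00000075602.10, chr15:74994877-74998031, minus strand) held its most open peaks outside the gene. A peak at the starts of Gm37042 and Gm8000, 9.05 kb after the TSS, had 37.0 FPM in young and 31.6 FPM in aged HSCs (ratio -0.23, from -0.36 to -0.10), far above the Ly6a promoter window, although 22.6% of its 31-base words recur elsewhere. The start of Ly6e, a related gene 42.6 kb away, had 20.5 and 23.4 FPM. Peaks 37.1 kb after (3.41 to 5.85 FPM, ratio 0.78) and 12.2 kb before the TSS (1.5 to 2.79 FPM, ratio 0.89) were called higher, and 13.9% of the words of the latter recur. The first call was lost with fragments of 150 bp or longer (0.49) and the second with thinned cells (0.41).

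Eng (ENSMUSG00000026814.16, chr2:32646595-32682669) lies among many open genes and had 32 peaks tested. An intergenic peak 8.52 kb upstream held 37.7 and 35.2 FPM, above the promoter peak at 21.9 and 20.1 FPM, and neither passed 1.5-fold. Called were a weak peak 22.2 kb upstream in Ak1 that rose (1.65 to 2.64 FPM, ratio 0.68), another of Ak1 14.0 kb upstream that fell (2.86 to 1.22 FPM, ratio -1.19), and one in Cdk9 64.0 kb downstream that fell (6.38 to 3.90 FPM, ratio -0.70). With thinned cells the first and the last of these lost their calls (0.31 and -0.16), and the peak 14.0 kb upstream had -1.91 with fragments under 150 bp. No minimum of fragments was applied to the ratios under these alternatives. The peak with the most fragments beyond 1 kb, 66.6 kb downstream at the start of Cdk9, had 65.4 and 61.6 FPM. Esam (ENSMUSG00000001946.14, chr9:37528078-37538319) had 19 peaks tested and 0 called, against 9.60% higher and 4.01% lower over all peaks. The Esam peak with the most fragments beyond 1 kb, at the start of Msantd2 39.1 kb upstream, had 36.5 and 32.6 FPM. The most open peak inside Esam, 2.26 kb after the TSS, held 31.2 and 31.9 FPM, with a ratio of 0.03 (-0.10 to 0.16). It stood above the peaks within 1 kb of the start used here. Windows at all 6 annotated Esam starts held 2771 young fragments, against 820 at this start. Whether the peak lies at another of these starts was not looked up.

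**Figure D4:**
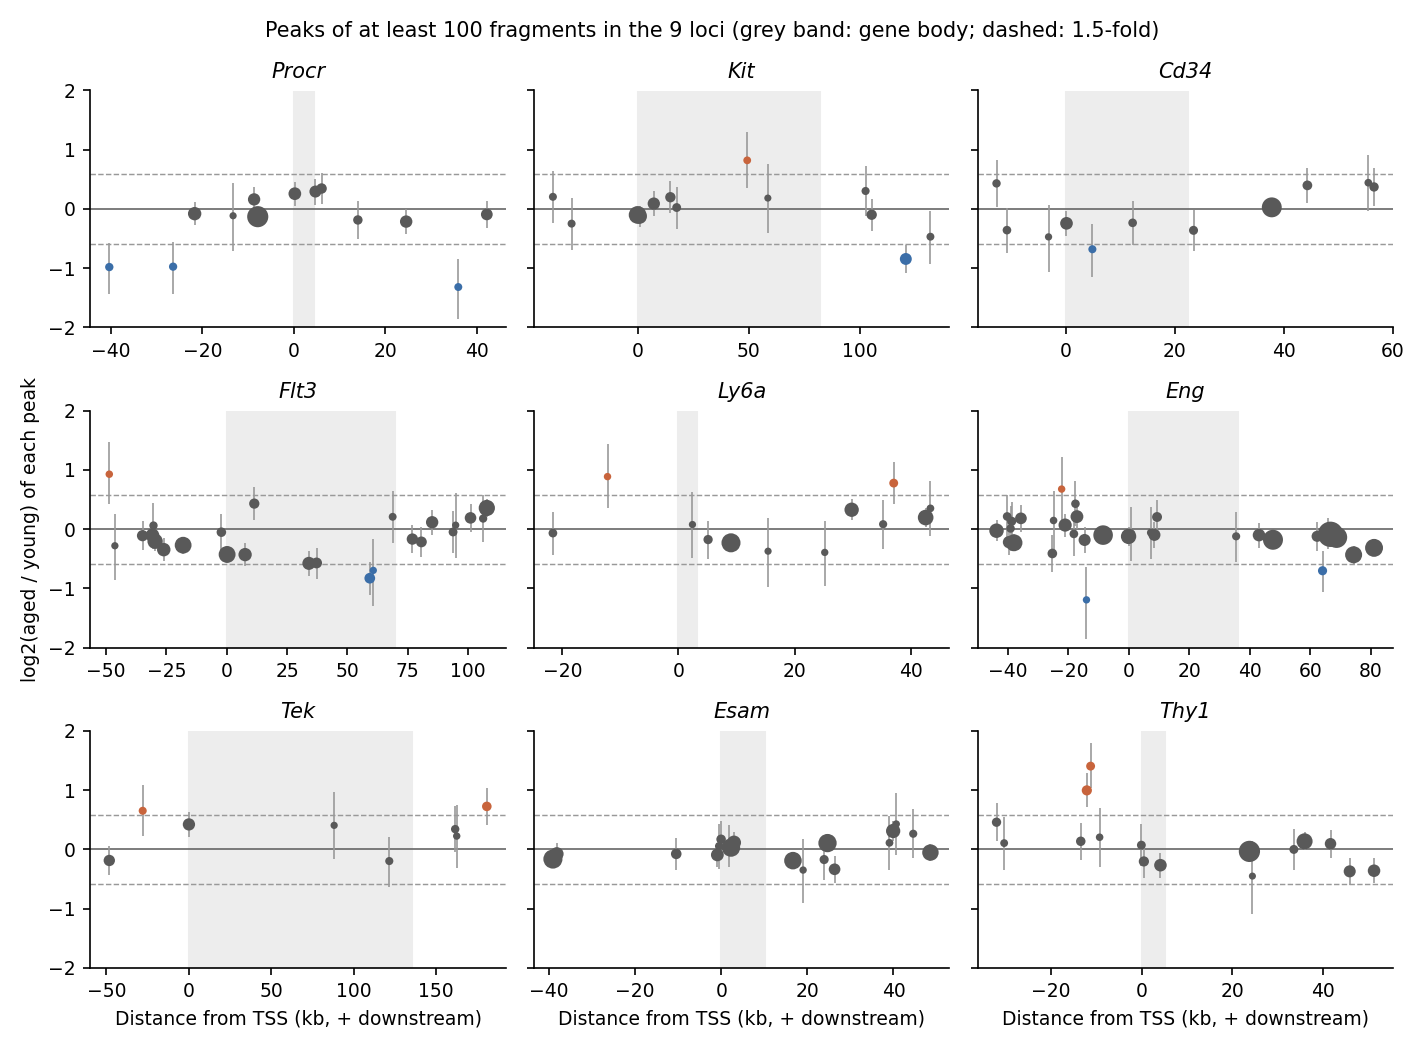
log2(aged/young) of each peak with at least 100 fragments against its distance from the TSS of the surface gene (kb), with 95% intervals of counting error, point area growing with the mean FPM, orange for higher and blue for lower past 1.5-fold (dashed). The pair upstream of Thy1, the losses around Procr and inside Flt3 (gene body in grey), and the absence of calls around Esam can be read from it.

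In single cells each promoter was seen in few cells at this depth. A Kit promoter fragment was found in 29.3% of young (28.0 to 30.6) and 30.1% of aged cells (28.6 to 31.7), a Tek fragment in 7.39% (6.67 to 8.16) and 10.9% (9.84 to 12), and a Flt3 fragment in 20.4% (19.3 to 21.6) and 17.1% (15.8 to 18.4). Ly6a fragments were found in 2.11% and 2.12% of cells. The promoters of Alb, Ins1, Krt5 and Myh6, closed in blood, were hit in 0.102 to 0.558% of cells, so even Ly6a stood above this background. Depth differed between ages, with medians of 8203 (young) and 8888 (aged) in-peak fragments, and these shares grow with depth.

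Each cell was therefore thinned to a depth of 3000 in-peak fragments on average, which left out no cell. The Tek share was then 2.60% of young (2.17 to 3.08) and 4.05% of aged cells (3.42 to 4.77), without overlap of the intervals. With fragments under 150 bp alone, in cells not thinned, it was 3.97% (3.44 to 4.56) and 4.17% (3.53 to 4.90), with overlap. Procr went from 3.64% (3.14 to 4.21) to 4.52% (3.85 to 5.28) and Flt3 from 7.59% (6.86 to 8.37) to 6.43% (5.63 to 7.31), with intervals that overlapped. Kit (11.9% and 11.2%), Eng (6.63% and 6.05%), Esam (5.71% and 5.90%), Cd34 (3.81% and 3.55%), Thy1 (2.93% and 2.73%) and Ly6a (0.737% and 0.676%) overlapped as well. Over gene bodies Flt3 was hit in 26.1% of thinned young and 22.1% of thinned aged cells, and Kit in 34.3% and 34.5%.

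**Figure D5:**
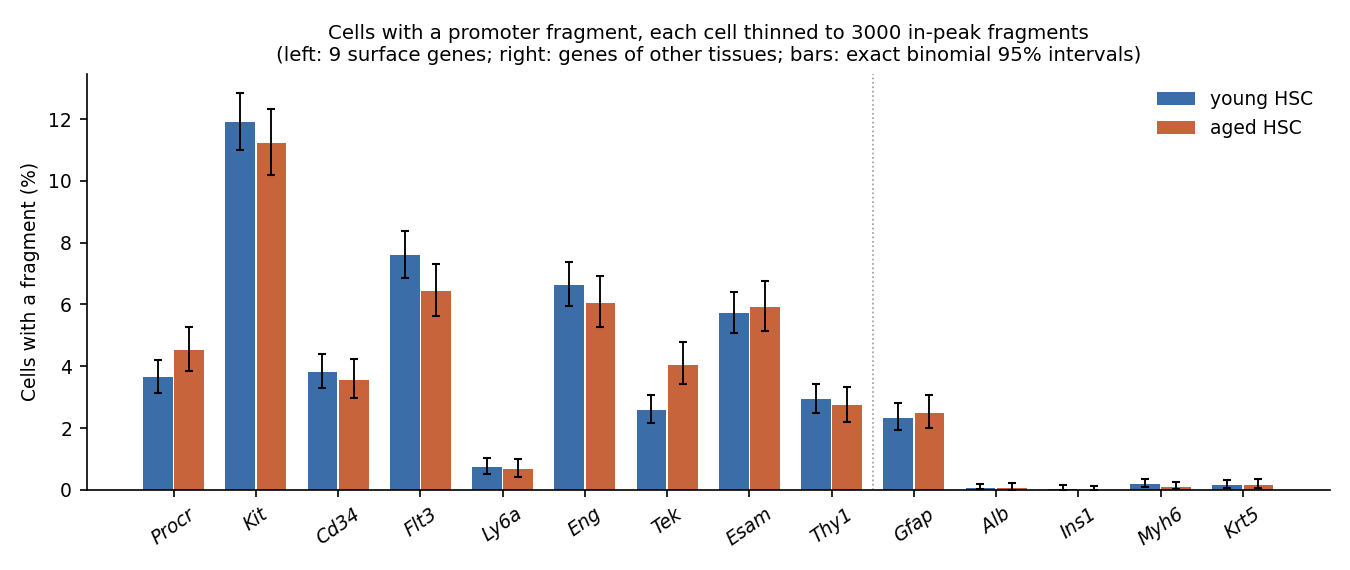
Percent of cells with at least 1 promoter fragment with each cell brought down to the same depth (3000 in-peak fragments on average), young in blue and aged in orange, for the 9 genes and for 5 genes of other tissues (right of the dotted line), with exact binomial 95% intervals. With fragments of all lengths, Tek is the gene whose intervals do not overlap between ages, and Gfap is as open as the lower surface genes.

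A thinned cell had a fragment at a mean of 0.455 of the 9 promoters in young and 0.452 in aged HSCs. None of the 9 was hit in 62.1% of young (60.8 to 63.5) and 62.4% of aged cells (60.7 to 64.0), and 3 or more in 0.819% and 0.676%. The variance of the summed fragments over cells was 1.02 times the mean in young and 0.997 times in aged HSCs, where independent counts of equal mean give a ratio of 1. Without thinning, where depth differs among cells, the ratio was 1.21 and 1.23. Thinned cells held a mean of only 0.476 and 0.471 such fragments, which keeps the ratio near 1 even where cells differ. At this depth the counts therefore could not show whether some cells have many and others few open marker promoters.

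Other surface genes used for stem cells moved in both directions. Of 22, 5 promoters were called higher and 6 lower, against 11.5% and 5.76% of all promoters, with a median log2 ratio of -0.02. The list was chosen with earlier results known and holds Selp, which the authors name as a hallmark gene of aged HSCs. Its shares are therefore no independent result, and genes such as Cd48, Il7r, Cdh5 and Slamf1 recur in lists below. Over their bodies 5 were higher and 0 lower, with a median of 0.11, against 11.7%, 5.11% and -0.02 over all bodies. Higher at the promoter were the adhesion receptor Selp (7.13 to 13.3 FPM, ratio 0.90), Neo1 (20.2 to 30.4 FPM, 0.59), Slamf1, which encodes the CD150 of the gate (7.10 to 9.60 FPM, 0.43), Jam2 (0.41) and the integrin gene Itgb3 (0.40). Lower at the promoter were Cd47 (51.0 to 38.4 FPM, -0.41), Itga2b (30.8 to 24.1 FPM, -0.35), Jam3 (-0.30), Cd48 (6.00 to 4.17 FPM, -0.52), Il7r (2.28 to 1.53 FPM, -0.56) and Cdh5 (1.96 to 1.22 FPM, -0.66). Of 4 genes taken for negative markers of the gate, without its lineage markers, Flt3, Cd34, Cd48 and Il7r, all had promoter ratios below 0, as did most promoters (median -0.05), and 3 passed 1.2-fold, against 5.76% of all promoters. Il7r rests on 79 and 40 fragments. Over their bodies 1 of the 4 was lower (Flt3), against 5.11% of all bodies, and the Il7r body had a ratio of 0.19.

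Among 17 genes for ligands and partners of the 9 proteins, 2 promoters were called higher and 0 lower, and 2 of 17 is near the 11.5% of all promoters. They were Kitl, the ligand of Kit (18.1 to 22.7 FPM, ratio 0.32), and Proc, the ligand of Procr (4.82 to 6.16 FPM, 0.35). Flt3l (30.3 and 29.3 FPM), Angpt1 (25.4 and 27.4 FPM), the Eng partners Acvrl1, Tgfbr1, Tgfbr2 and Bmpr2 (-0.12 to 0.07) and the signalling genes Sh2b3, Cbl, Grb2, Lyn and Ptpn6 (-0.13 to 0.18) stayed within 1.2-fold. Of 9 genes of the Ly6 family, 7 had at least 50 fragments. Ly6h rose (4.33 to 6.50 FPM, ratio 0.59), Ly6i, Ly6c1 and Ly6c2 (-0.28, -0.27 and -0.71) passed 1.2-fold downwards on few fragments, each interval including 0, and Ly6e, the most open, had 24.4 and 28.9 FPM.

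Markers of other cells were looked at because several of the 9 genes are shared with them. The counts of calls below stand against 11.5% higher and 5.76% lower over all promoters. Of 9 endothelial genes, 3 promoters were called higher (Kdr 0.30, Cldn5 0.43 and Stab2 1.29, the last from 18 and 34 fragments) and 1 lower (Cdh5), the median ratio was 0.16, and their summed level was 95.1 FPM in young and 104 FPM in aged HSCs. Of 4 stromal genes, Lepr (0.79) and Cxcl12 (0.28) were higher, with a sum of 41.5 and 47.3 FPM. The sums were 33.1 and 33.6 FPM for 6 B cell genes, 17.9 and 17.6 FPM for 6 T cell genes, 15.3 and 16.2 FPM for 6 granulocyte-monocyte genes, 48.8 and 47.2 FPM for 6 erythroid genes and 140 and 127 FPM for 5 megakaryocyte genes. Promoters called higher and lower were 1 and 1 of 5 tested B cell genes, 1 and 1 of 3 T cell genes, 2 and 1 of 4 granulocyte-monocyte genes, 2 and 0 of 5 erythroid genes and 0 and 1 of 4 megakaryocyte genes. The part of other cells in the Tek and Procr values was not tested. Of 14 HSC genes, 13 were tested, and Tek, Slamf1 and Hoxb5 were called higher and 0 lower. This list includes Procr, Kit, Ly6a, Eng, Tek, Esam and Thy1, and Tek and Slamf1 were already counted above. Flt3, called lower, and Cd34 were placed with the negative markers instead, so this count is not independent of those above. The promoters of Meis1 (41.3 and 42.9 FPM) and Hlf (35.6 and 33.7 FPM) were open, and Mecom, an HSC gene, had 0.520 and 0.535 FPM at its annotated 5' end.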

How the data were processed

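Single-cell ATAC-seq of 2 libraries was used, 1 per age, with groups from the sample labels. Reads had been aligned to mm10 and freed of duplicates by the authors with Cell Ranger ATAC, who deposited, per library, a list of unique fragments and a table of counts per barcode, with no normalization. The version named in their methods and the layout of the table do not match, and the version is not given here. The deposited cell call and in-peak fragment counts chose the cells. Doublets were not removed.

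GENCODE M21 on GRCm38, the same build, gave genes. Each fragment with an end inside a region added 1 to its count. Own peaks were called on cut sites (151-bp windows against the larger of the genome and 10 kb mean, Poisson q below 0.001, gaps up to 50 bp joined, width at least 100 bp) and merged over libraries (164548 peaks). Counts were scaled to fragments in these peaks (34640170 young, 26146945 aged), and log2(aged/young) used a pseudocount of 1 fragment. FPM have exact Poisson, shares exact binomial (Clopper-Pearson) intervals, and ratios the binomial interval of the aged share. Intervals cover counting error only.

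The 9 genes, the gene lists and the thresholds were chosen with earlier results of these data known. Named were all 9 genes, genes of the lists, and per locus the peak with the most fragments beyond 1 kb of the TSS and up to 3 called peaks each way (other peaks named to place these were chosen after their values were seen). Of the list of genes closed in blood, 1 is not reported here. Counting and calls were tested on simulated data. Python 3.11.15 with numpy 2.4.6, pandas 2.3.3, scipy 1.17.1, numba 0.67.0 and matplotlib 3.10.9 was used.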

Additional observations from a re-analysis of the deposited data

Results flagged for a closer look

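Fragments at the 9 promoters also occurred in barcodes outside the cells analysed, those within the depth limits that the pipeline had not called as cells. The 123 such young barcodes held 93 fragments at the 9 promoters, 111 per 1000000 of their fragments (89.6 to 136), against 133 per 1000000 in the young cells. The 131 aged barcodes held 97, which is 63.5 per 1000000 (51.5 to 77.4), against 124 per 1000000 in the aged cells. With these barcodes added, the calls at promoters stayed 1 higher and 1 lower.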

How the results depend on the processing

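No paired analysis was possible because each age has 1 library and no replicate could be left out. Other scalings, the pseudocount, the 6 quality limits, uncalled barcodes and cut sites left the promoter counts (1 higher, 1 lower) as they were. The 6 limits kept 4887 of 4887 young and 3403 of 3404 aged cells, and the pseudocount weighs little at these counts. These settings could therefore hardly change a call. With fragments under 150 bp, 3 promoters were lower (Cd34, Flt3, Ly6a), 1 was higher (Procr) and the Tek ratio was -0.012, against 7.02% lower and 9.6% higher over all promoters. With fragments of 150 bp or longer, an alternative chosen after seeing the data, 2 promoters were lower (Flt3, Thy1) and 1 higher (Tek), against 12.2% and 10.3% over all promoters, and with 500 bp windows 2 were lower (Flt3, Ly6a) and 1 higher (Tek), against 5.98% and 11.3%. With thinned cells 2 were higher (Procr, Tek) and 0 lower, against 11.2% and 8.28%, and at 1.5-fold 0 were called either way (3.99% and 1.3% over all). Over bodies, 2 were lower (Cd34, Flt3) when scaled to all fragments, with short fragments, cells of 5000 to 15000 in-peak fragments, thinned cells or without 1 kb next to the TSS. There 2 were higher (Procr, Ly6a) with short fragments or thinned cells, 0 with 2 kb added upstream or longer fragments, and 0 either way at 1.5-fold. Over all bodies 5.52 to 9.25% were lower under the settings that gave 2 lower, and 8.98 to 11.9% higher under those that gave 2 or 0 higher at 1.2-fold. The median body ratio was -0.15 with short fragments, -0.064 with cells of 5000 to 15000 in-peak fragments and -0.047 with longer fragments. The peaks past the fold, higher and lower, were 3 and 5 of 94 with thinned cells (5.40% and 2.59% of all peaks), 3 and 2 of 96 with longer fragments (5.57% and 1.83%), 15 and 14 of 196 from 50 fragments (13.2% and 6.45%), 4 and 6 of 115 from 200 fragments (5.92% and 2.18%), 1 and 2 of 149 at 2-fold (3.43% and 0.845%), and 28 and 31 of 149 at 1.2-fold (24% and 15.7%). The causes were not tested. Ratios of single peaks under the alternatives, as given above, had no minimum of fragments applied. Of 126 promoter ratios under alternatives 120 stayed within the counting interval, and of 117 body ratios 110 did. Most alternatives share fragments with the main setting, so these counts are not independent checks. Shares of cells moved with depth and window, 76 of 144 beyond their interval. Differences between animals cannot be told apart from those between ages.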
